A study of Mus musculus with 14 samples.

Results

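Oxidative phosphorylation was described here through 105 genes: the 13 genes of the mitochondrial genome that the count table holds and 92 nuclear genes whose symbols begin with Nduf, Sdha to Sdhd, Uqcr, Cox4 to Cox8 or Atp5. Chromosome and symbol alone defined them, out of 12421 genes measured, and the choice was made with earlier results of these data known. RNA was sequenced from mouse T-cell acute lymphoblastic leukaemia (T-ALL) in a model started by the transcription factor gene Lmo2, and the submitters sorted the tumours into 3 classes by whether the leukaemia needed Lmo2. Thymocytes had first been transplanted into F1 mice of the cross C57BL/6-Ly5.1;FVB after sublethal irradiation. The cryopreserved leukaemias that arose were then injected into C57BL/6-Rag1-/- recipients, which lack mature lymphocytes of their own, and donor cells positive for both CD45.1 and CD45.2 were sorted from the spleen. The dependent class holds VTL-19 and VTL-24, sequenced without doxycycline (Dox) only. The evolving class holds VTL-21, VTL-25 and also VTL-153. The independent class holds VTL-33, VTL-44 and also VTL-81. Values of a class are listed in this tumour order, and the 6 evolving and independent tumours were each sequenced once without Dox and once from a recipient given Dox in food at 600 mg/kg. All groups carry the Lmo2-driven leukaemia and the same host strain, and the labels name no age, sex or normal thymocyte sample. The construct that drives Lmo2, and the direction in which Dox acts on it, are not given in the sources used here. Each tumour number is taken as 1 leukaemia, so a tumour in 1 Dox state is counted as 1 replicate. The p-values of the class comparisons measure only the spread between tumours, 8 without and 6 with Dox. Those of the Dox comparisons measure only the spread of the change within a tumour over the 6 paired tumours.

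The respiratory chain passes electrons from NADH through complex I, or from succinate through complex II, to complex III and on to oxygen at complex IV, and complex V uses the resulting proton gradient to make ATP. Complex II is built from nuclear genes alone, while the other 4 need core subunits encoded in the mitochondrial DNA, which is transcribed by its own polymerase as long transcripts that are cut into single RNAs. The nuclear members cover subunits that carry electrons or protons, accessory subunits around them, and factors that help assembly. In many tissues some complex IV subunits exist as a common and a tissue-restricted isoform.

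The nuclear members comprised 44 genes of complex I, 8 of complex II, 8 of complex III, 16 of complex IV and 16 of complex V, on 19 chromosomes. Of these, 12 were assembly factors and 4 were restricted isoforms of complex IV. The mitochondrial members were 7 protein genes, namely mt-Nd1, mt-Nd2, mt-Nd4, mt-Nd5 and mt-Nd6 of complex I, mt-Cytb of complex III and mt-Co1 of complex IV, with both ribosomal RNAs, mt-Rnr1 and mt-Rnr2, and 4 of 22 transfer RNAs. The other 24 of the 37 genes of the mitochondrial genome were not analysed here, so no mitochondrial member of complex V enters any value.

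Library totals ranged from 18214415 to 24048281 counts, and levels are given as CPM, counts scaled so that the genes of each library sum to 1000000. Positions are on build mm10, with gene models of GENCODE M21. Lmo2 stood at 122 and 141 CPM in the dependent tumours, was lower with Dox than without in each of the 6 paired tumours, and was already at 9.23 CPM in VTL-44 and 27.5 CPM in VTL-81 without Dox. VTL-25 and VTL-153 without Dox were unusually alike: only 4 genes passed 20 CPM in one library while staying under 0.5 CPM in its partner. Every other pair without Dox had 21 to 131 such genes. Whether VTL-25 and VTL-153 arose separately was not tested, and each is counted as a replicate in the comparisons. The 10 T cell markers were abundant in all 14 libraries, at a summed 6108 to 9752 CPM. Summed levels of 10 of 10 myeloid markers ranged from 17.31 to 2025 CPM, of 8 of 10 erythroid markers from 0.1389 to 179.1 CPM, of 4 of 10 stromal markers from 140.9 to 895.5 CPM and of 3 of 10 B cell markers from 8.439 to 171.8 CPM. None of 8 muscle markers was among the genes analysed.

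The mitochondrially encoded genes varied far more between libraries than the nuclear genes did. They took 4.727% of all counts in VTL-19 and 2.627% in VTL-24. Among evolving tumours they took 2.112% in VTL-21, 1.939% in VTL-25 and 1.899% in VTL-153 without Dox, and 3.073%, 1.949% and 2.077% with Dox. Independent tumours spanned the whole range: 4.248% without and 6.008% with Dox in VTL-33, 4.923% and 2.307% in VTL-44, and 1.625% and 5.734% in VTL-81. The highest share was 3.698 times the lowest. The 92 nuclear members together took between 0.956% in VTL-19 and 1.419% in VTL-81 without Dox, a 1.485-fold range.

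**Figure D1:**
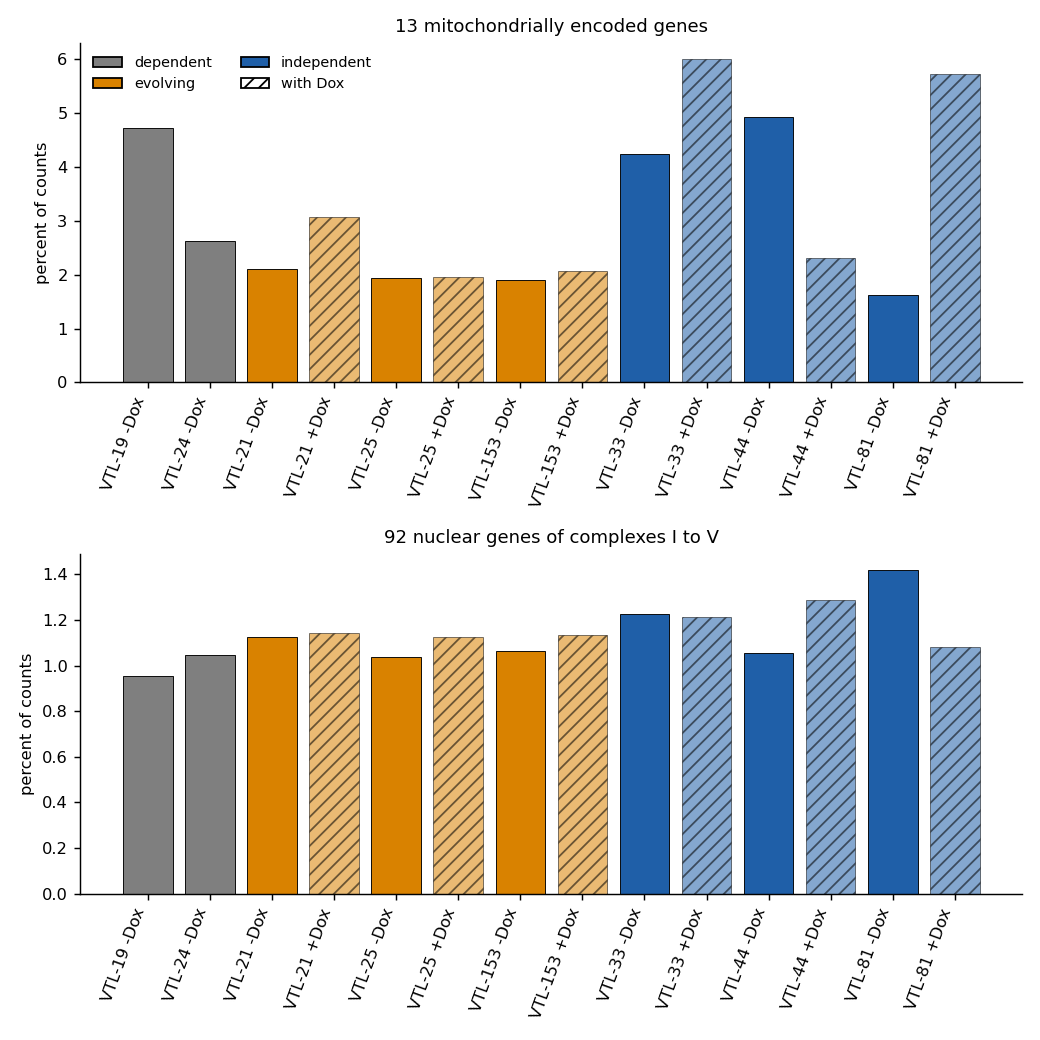
Share of each library's counts (y axis, percent) taken by the 13 mitochondrially encoded genes, top, and by the 92 nuclear genes, bottom; each bar is 1 library, coloured by tumour class and hatched with Dox. The mitochondrial bars run from 1.625% to 6.008%, while the nuclear bars stay between 0.956% and 1.419%.

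The same contrast held gene by gene. For the 7 mitochondrial protein genes the highest library stood at 3.502 to 4.416 times the lowest, and the median SD of log2 CPM over the 14 libraries was 0.67. For the 85 nuclear members with a mean above 10 CPM the median range was 1.702-fold, 70 of 85 varied by less than 2-fold, and the median SD was 0.22. The median SD over all 9032 genes above that level was 0.30, so nuclear members varied less, and mitochondrial genes more, than the typical gene. The ratio of mitochondrial protein counts to nuclear member counts ran from 1.051 in VTL-81 without Dox to 4.829 in VTL-81 with Dox, so a single tumour held both ends.

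Per length, mitochondrial transcripts stood well above nuclear ones. On the scale of CPM per kilobase of exon, mt-Co1, the catalytic core of complex IV, had a median of 5090 over the 14 libraries, and mt-Cytb, the cytochrome b of complex III, had a median of 4510. The 5 mitochondrial genes of complex I had a median of 1680, from mt-Nd6 at 73.7 to mt-Nd1 at 3530. mt-Nd6 is the one protein gene read from the other strand of the mitochondrial genome. The medians of nuclear structural subunits were 44.9 for complex I (36 genes), 70.6 for complex II (4 genes), 87.6 for complex III (8 genes), 93.7 for complex IV (11 genes) and 76.7 for complex V (15 genes). Atp5b, the catalytic beta subunit of ATP synthase, was the highest nuclear member at 379, and the 12 assembly factors had a median of 7.91. In plain CPM the most abundant member of each complex was mt-Nd1 (mean 4251), Sdha (348), mt-Cytb (6756), mt-Co1 (9961) and Atp5b (1640) for complexes I to V.

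Values in each library are given for 4 mitochondrial genes. mt-Co1 (mitochondrial genome, 5328 to 6872) stood at 11174 and 8471 CPM in the dependent tumours VTL-19 and VTL-24. The evolving tumours had 4817, 6049 and 5798 CPM without Dox and 9565, 5885 and 6959 CPM with Dox. The independent tumours had 13820, 16987 and 4863 CPM without Dox and 19074, 7268 and 18725 CPM with Dox. Evolving tumours without Dox thus lay below both dependent tumours, while independent tumours overlapped both other classes.

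mt-Cytb (14145 to 15288) stood at 8901 and 5674 CPM in dependent tumours, at 4209, 4062 and 3829 CPM in evolving tumours without Dox, and at 9232, 9438 and 3667 CPM in independent tumours without Dox. With Dox it stood at 6100, 4600 and 4640 CPM in evolving and 13520, 4576 and 12137 CPM in independent tumours, in the same tumour order. mt-Nd1, a membrane core subunit of complex I (2751 to 3707), stood at 6265 and 3304 CPM in dependent tumours, 2783, 2397 and 2444 CPM in evolving and 6043, 6396 and 2316 CPM in independent tumours without Dox. With Dox it stood at 3458, 2986 and 2627 CPM in evolving tumours and at 8646, 3570 and 6283 CPM in independent tumours. For both genes the order of libraries was close to that of mt-Co1, with VTL-81 without Dox at the low end. mt-Nd5, another membrane core subunit of complex I, stood at 6322 and 3300 CPM in dependent tumours, 3050, 2454 and 2542 CPM in evolving and 5478.5, 5994 and 1958 CPM in independent tumours without Dox. With Dox it stood at 4593, 1804 and 2407 CPM in evolving tumours and at 7907, 2566 and 7469 CPM in independent tumours. In VTL-25 and VTL-153 it was thus lower with Dox, while mt-Nd1 was higher with Dox in both.

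The ribosomal RNAs did not follow the protein genes in all libraries. They made up 5.773% to 17.5% of mitochondrial counts, and the 2 highest shares were in VTL-19 (17.5%) and VTL-21 without Dox (16.6%). mt-Rnr1, the small-subunit ribosomal RNA, stood at 3505 CPM in VTL-19 and 508.8 CPM in VTL-24, and lay between 189.0 and 1470 CPM in the other libraries. Its part of the ribosomal counts ranged from 13.33% in VTL-44 with Dox to 42.38% in VTL-19. How ribosomal RNA was handled in library preparation is not given in the sources used here. The 4 transfer RNAs stayed between 0.535 and 5.44 CPM.

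Dox went with opposite patterns in 2 of the independent tumours. In VTL-44 all 7 mitochondrial protein genes were lower with Dox, by a median log2 change of -1.14, while 85 of 92 nuclear members were higher, by a median of 0.33. In VTL-81 all 7 were higher with Dox, by a median of 1.81 (3.5-fold), and 83 of 92 nuclear members were lower, with a median of -0.33. VTL-33 had all 7 mitochondrial protein genes higher (median 0.52) and nuclear members spread about 0 (median -0.02, 33 higher and 59 lower). Of all 12360 genes, 5224 were higher and 7095 lower in VTL-33 (median -0.04). In VTL-44 5715 were higher and 6599 lower (median -0.03), and in VTL-81 6545 were higher and 5758 lower (median 0.035). These are differences of log2(CPM + 0.1) between single libraries of a tumour, with no replicate within a tumour.

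Each complex took part in both tumours. In VTL-44 the nuclear medians were 0.34 for complex I, 0.24 for complex II, 0.31 for complex III, 0.33 for complex IV and 0.32 for complex V. In VTL-81 they were -0.31, -0.42, -0.45, -0.31 and -0.35 in that order. No complex stood apart in direction in either tumour.

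In VTL-44 and VTL-81 the nuclear values stayed close when mitochondrial counts were left out of the totals. In CPM of the counts outside the mitochondrial genome, the nuclear median was 0.29 in VTL-44, with 84 of 92 higher, and -0.27 in VTL-81, with 82 of 92 lower. The split in VTL-33 depended on this scaling: 47 nuclear members were then higher and 45 lower, with a median of 0.004. Other expression lists also differed in these tumours. The 76 genes of the mitochondrial ribosome had medians of 0.23 in VTL-44 (57 higher) and -0.40 in VTL-81 (74 lower), and the 85 genes of the cytosolic ribosome had 0.10 (64 higher) and -0.29 (83 lower). The 18 genes of the citrate cycle and pyruvate entry had 0.15 (15 higher) and -0.32 (17 lower). Electron carriers and exchange genes had 0.21 and -0.37, and glycolysis 0.16 and -0.21. Other lists did not follow the nuclear members in VTL-44. The 9 regulators of mitochondrial biogenesis had -0.31 (7 lower) and -0.14 (7 lower). The 30 assembly factors outside the symbol rule had -0.05 (18 lower) and -0.28 (25 lower). The 20 genes that express the mitochondrial genome had 0.02 (11 higher) and -0.14 (13 lower).

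Markers of other cells moved in the same tumours. The myeloid sum in VTL-44 was 1461 CPM without and 794.8 CPM with Dox, in VTL-81 it was 185.6 and 2025 CPM, and in VTL-33 it was 68.35 and 165 CPM, on 10 of 10 markers, none of them at 0. The stromal sum (4 of 10 markers) was 428 and 362.4, 636.5 and 895.5, and 254.8 and 850.4 CPM in the same order. Its markers did not move together. In that tumour order, Pdgfrb went from 4596 to 3734, 8741 to 10561 and 2681 to 14433 counts. Col1a2 went from 204 to 443, 2719 to 3016 and 450 to 2384 counts. Col1a1 fell from 513 to 183, 358 to 182 and 60 to 9 counts, and Pecam1 went from 3360 to 3111, 2787 to 2552 and 2721 to 3275. The erythroid sum was 32.62 without and 142.5 CPM with Dox for VTL-44, and 5.883 without and 31.73 CPM with Dox for VTL-81. The B cell sum (3 of 10 markers) was 171.8 without and 50.16 CPM with Dox for VTL-44, and 28.28 without and 71.76 CPM with Dox for VTL-81. Cells had been sorted for both CD45.1 and CD45.2, which other blood cells of the donor can also carry. Stromal and red cells lack CD45, yet counts of genes listed as their markers were present after the sort. Which cells these counts came from was not tested. The part of other cells in the nuclear and mitochondrial values was not tested. In a bulk library fewer cells of a type and less RNA per cell cannot be told apart.

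In the evolving tumours the medians of both sets were smaller in size than in VTL-44 and VTL-81, and they differed between tumours. Changes of single nuclear members were not smaller. Among members above 10 CPM their SD was 0.198, 0.351 and 0.385 in VTL-21, VTL-25 and VTL-153. It was 0.125, 0.193 and 0.219 in VTL-33, VTL-44 and VTL-81. VTL-21 had all 7 mitochondrial protein genes higher with Dox (median 0.59) and nuclear members evenly split (48 higher, 44 lower, median 0.01). VTL-25 had 4 of 7 and 51 of 92 higher, with medians of 0.18 and 0.04. VTL-153 had 4 of 7 and 29 of 92 higher, with medians of 0.05 and -0.11. The median over all genes was 0.04, -0.05 and -0.12 in these 3 tumours, so the nuclear median of VTL-153 was near that of all genes. In VTL-21 the erythroid sum went from 6.737 without to 179.1 CPM with Dox, the highest of all libraries. The myeloid sum there went from 17.31 to 188.2 CPM and the B cell sum from 32.13 to 134.6 CPM. Of its 3 B cell markers, Cd74 went from 352 to 2446 counts and Blnk from 32 to 146, while Cd79b fell from 336 to 91. The B cell sum was lower with Dox in VTL-25 (46.82 to 32.83 CPM) and VTL-153 (112.8 to 8.439 CPM). In VTL-25, however, Cd79b rose from 356 to 583 counts. The myeloid sum was also lower with Dox in VTL-25, at 23.9 against 229.5 CPM, and in VTL-153, at 19.23 against 171.6 CPM. The part of these cells was not tested.

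**Figure D2:**
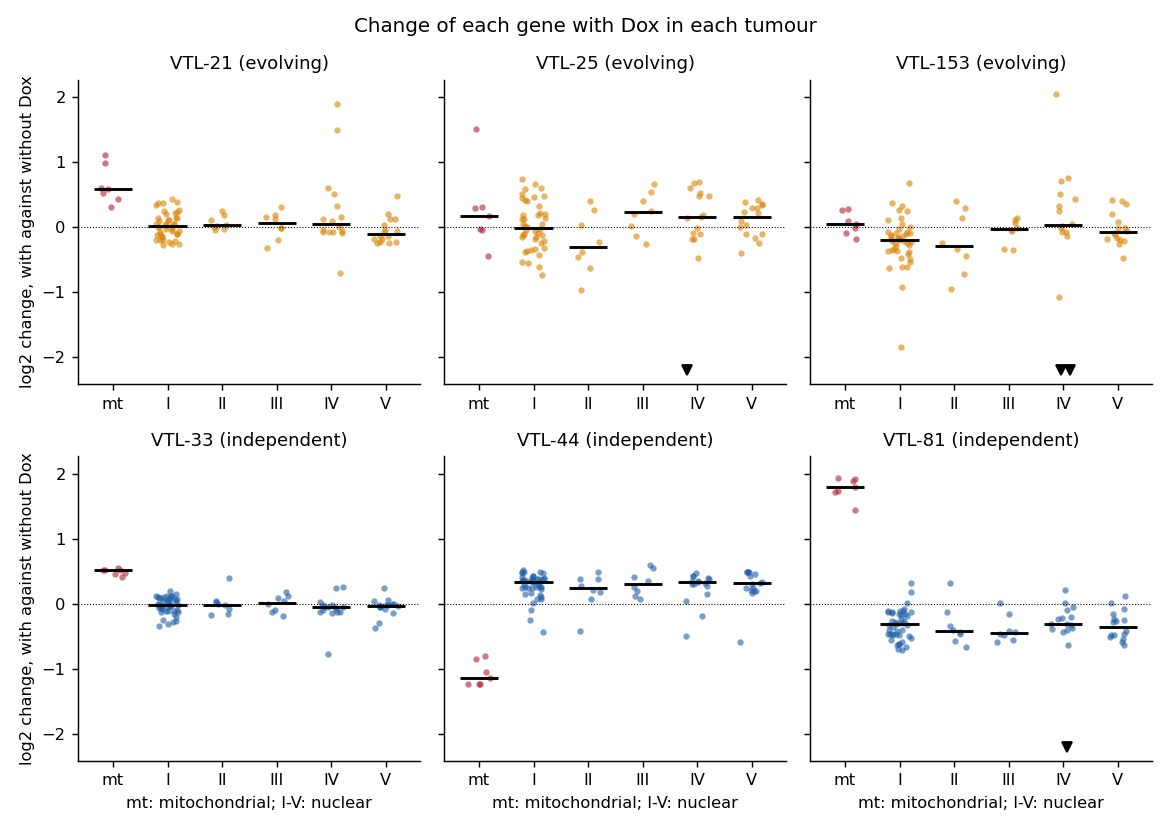
Log2 change in CPM with against without Dox (y axis) of each gene in each of the 6 paired tumours; mt marks the 7 mitochondrial protein genes and I to V the nuclear genes of each complex, bars are medians, and black triangles are values beyond the axis. In VTL-44 the mitochondrial median is -1.14 and the nuclear complexes lie above 0, and in VTL-81 the mitochondrial median is 1.81 and the nuclear complexes lie below 0.

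The question of the Dox comparison is which genes respond within each tumour class. Over the 3 evolving tumours, edgeR's quasi-likelihood test with the tumour as a block called none of the 105 members at an adjusted p of 0.05 (Benjamini-Hochberg over all 12360 genes tested), where it called 263 genes, or 2.13%, of all. At an unadjusted p of 0.05 it reached 5 of 92 nuclear members and 0 of 7 mitochondrial protein genes, against 16.7% of all genes. DESeq2 and limma voom also called no member here. The medians were 0.03 for nuclear and 0.29 for mitochondrial protein genes, and complex IV had the highest nuclear median at 0.23, with 4 of its 16 genes under that unadjusted p.

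The evolving members with the smallest p were complex IV genes for the most part. Ndufa4, a complex IV subunit despite its name, stood at 106.6, 99.88 and 79.40 CPM without Dox in this class and at 162.2, 111.8 and 135.2 CPM with Dox. Its log2 change was 0.55 (SE 0.17), with an adjusted p of 0.159. Cox6c, a small membrane subunit, followed at 0.48 (SE 0.17, adjusted p = 0.224). It changed by 0.124, 0.486 and 0.71 in VTL-21, VTL-25 and VTL-153. The other genes of its chromosome, 15, had medians of -0.007, 0.197 and 0.441 there. Cox7a2l, which helps join complexes III and IV, had 0.38 (SE 0.14, adjusted p = 0.244). Sdhd, a membrane anchor of complex II, had 0.38 and Cox6a1, the common isoform of subunit VIa, had 0.50, with adjusted p of 0.284 and 0.318. Among lower values, Cox6b2 had -0.60, the assembly factor Ndufaf3 -0.49, and the complex I subunits Ndufs8, Ndufb2 and Ndufa2 -0.35, -0.32 and -0.27, with adjusted p from 0.247 to 0.506. Of the nuclear members 13 of 92 were higher with Dox in all 3 evolving tumours, against 15.0% of all genes. Complex IV held 6 of these 13, namely Cox4i1, Cox6a1, Cox6c, Cox7a2, Ndufa4 and Cox7a2l, and among mitochondrial protein genes mt-Nd1 and mt-Cytb were higher in all 3.

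Over the 3 independent tumours edgeR called no gene at all at an adjusted p of 0.05 (0.0%), and DESeq2 and limma voom called no member. At an unadjusted p of 0.05 it reached 0 of the 105 members against 0.704% of all genes. The mitochondrial protein genes had a median of 0.43, with 7 of 7 fitted values above 0, but this rested on 1 tumour: without VTL-81 the median was -0.33 and without VTL-44 it was 1.18. By the smallest p, the higher members were mt-Rnr2 (0.55), mt-Nd2 (0.52), mt-Nd1 (0.40), Ndufs3 (0.14) and Ndufb5 (0.14), and the lower ones Ndufaf4 (-0.25), Ndufab1 (-0.18), Ndufaf6 (-0.24), Uqcrc2 (-0.12) and Atp5b (-0.14), each with an adjusted p of 1.0. Without VTL-81, the values of mt-Rnr2, mt-Nd2, mt-Nd1, Uqcrc2 and Atp5b changed sign. Higher values with Dox in all 3 independent tumours were found for 2 of 92 nuclear members and 0 of 7 mitochondrial protein genes, against 7.08% of all genes. The difference of the Dox responses was not called for any member by edgeR, DESeq2 or limma voom, where edgeR called 15 genes, or 0.121%, of all, and 0 of 92 nuclear and 0 of 7 mitochondrial protein genes reached an unadjusted p of 0.05 against 9.53% of all genes. The median difference of responses, independent minus evolving, was -0.03 for nuclear members. The smallest p in that test belonged to Ndufa4 (-0.47), Cox6a1 (-0.60), Sdhd (-0.42), Cox6c (-0.40) and Ndufs4 (-0.30) in the lower direction and to Cox6b2 (0.55), Sdhaf1 (0.52), Ndufb2 (0.26), Ndufs8 (0.35) and Ndufa2 (0.29) in the higher one, with adjusted p from 0.632 to 0.825.

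Tumour classes were compared next, first without Dox. These comparisons share libraries with each other and with the Dox comparisons, so their values are set side by side and not counted as separate evidence. In evolving against dependent tumours, all 7 mitochondrial protein genes were lower in every evolving library than in both dependent libraries, as were 11 of the 13 mitochondrial genes, against 4 of 92 nuclear members and 7.8% of all genes. The fitted values of the 7 ran from -1.02 (mt-Nd6) to -0.85 (median -0.91). mt-Nd2 had -0.97 (SE 0.41), mt-Nd4 -0.91 (SE 0.40) and mt-Cytb -0.88 (SE 0.41), with unadjusted p of 0.0509, 0.0571 and 0.0669. edgeR called no gene in this comparison (0.0%), each member having an adjusted p of 1.0, and DESeq2 and limma voom called no member. At an unadjusted p of 0.05 it reached 0 of 7 mitochondrial protein genes and 3 of 92 nuclear members, against 3.39% of all genes. With only 2 dependent tumours the size rested on which was kept: the mitochondrial median was -0.54 without VTL-19 and -1.25 without VTL-24.

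Among nuclear members of that comparison the median was 0.11. Ndufaf4, an assembly factor of complex I (chromosome 4, 24898083 to 24905001), stood at 62.87 and 48.70 CPM in dependent tumours, 40.74, 36.30 and 37.62 CPM in evolving and 32.67, 41.06 and 37.43 CPM in independent tumours without Dox. The dependent libraries were thus above all 6 others, with log2 values of -0.57 (SE 0.17) for evolving and -0.58 (SE 0.17) for independent against dependent. The adjusted p was 1.0 and 0.220. The higher members were Cox7a2 (0.63), Atp5k (0.39), Cox6a1 (0.34), Cox5a (0.30) and Ndufb11 (0.21), all at an adjusted p of 1.0.

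Independent against dependent tumours gave the largest nuclear median of the 7 comparisons. Of 92 nuclear members 78 had a positive value, the median was 0.23 against 0.03 for all genes, and the mitochondrial protein genes had a median of -0.09. The nuclear medians were 0.18 for complexes I and II, 0.31 for complex III, 0.41 for complex IV and 0.25 for complex V. Subunits and assembly factors differed: 27 of 29 accessory subunits of complex I and 11 of 11 accessory subunits of complex IV were positive, against 4 of the 12 assembly factors, whose median was -0.13. No member passed edgeR's adjusted p of 0.05, which 12 genes, or 0.0972% of all, did. At an unadjusted p of 0.05, 19 of 92 nuclear members (8 of 16 in complex IV) stood against 13.2% of all genes. DESeq2 alone called 5 nuclear members, Cox4i2, Cox6a1, Sdhd, Atp5g3 and Ndufb5, at adjusted p from 0.00103 to 0.0491. DESeq2 also called many more of all genes than edgeR did, as counted in the closing section. Its 5 calls were no larger a share of the 92 members than its calls were of all genes. In 29 of 92 nuclear members, or 31.5%, every independent library lay above both dependent libraries, against 14.2% of all genes. That was 9 of 16 in complex IV, 10 of 44 in complex I, 3 of 8 each in complexes II and III and 4 of 16 in complex V.

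The difference was largest in 1 independent tumour. VTL-81 without Dox was the highest of the 14 libraries for 40 of the 85 nuclear members above 10 CPM (47.1%), where it was highest for 11.2% of all genes. VTL-19 was the lowest for 25 of them (29.4% against 7.29% of all genes). Without VTL-81 the nuclear median of independent against dependent was 0.12, and 0.02 for independent against evolving. The cytosolic ribosome list was also high in VTL-81 without Dox, with a median of 0.50 above the gene-wise means, where the nuclear members had 0.31. On that scale the nuclear members had 0.09 in VTL-33 and -0.14 in VTL-44 without Dox. They had -0.22 and -0.11 in dependent tumours and 0.02, -0.06 and -0.02 in evolving tumours without Dox. VTL-44 thus lay between both dependent tumours and below the evolving ones. Stromal markers (4 of 10 in the table) summed to 140.9 to 166.6 CPM in dependent and 254.8 to 636.5 CPM in independent tumours without Dox. Of these 4, Pdgfrb had 183 and 0 counts in the former and 2681 to 8741 in the latter, and Col1a2 had 1 and 54 against 204 to 2719. The other two overlapped, Pecam1 at 2565 and 2955 against 2721 to 3360 counts and Col1a1 at 376 and 35 against 60 to 513. The myeloid sum was 29.86 to 101.9 CPM against 68.35 to 1461 CPM, and the erythroid sum 0.1389 to 11.14 CPM against 1.552 to 32.62 CPM, with 5 of its 8 measured markers at 0 in VTL-24. The B cell sum was 11.9 to 28.1 CPM against 12.54 to 171.8 CPM. The sort on both CD45 forms applies to these libraries too, and the part of these cells in the class differences was not tested.

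Independent against evolving tumours without Dox gave a nuclear median of 0.13, with 69 of 92 positive, and a mitochondrial protein median of 0.81, with 7 of 7 positive. edgeR called 32 genes, or 0.259%, and no member. At an unadjusted p of 0.05 it reached 13 of 92 nuclear members and 3 of 7 mitochondrial protein genes, against 16.4% of all genes. DESeq2 called Cox4i2, Ndufa4, Sdhd, Ndufb5 and Ndufs4, at adjusted p from 0.00442 to 0.0373. These calls were a smaller share of the 92 members than DESeq2's calls were of all genes, as counted in the closing section. Groups did not overlap for 13 of 92 nuclear members and 0 of 7 mitochondrial protein genes, against 10.1% of all genes, since VTL-81 lay among or below the evolving tumours for the mitochondrial genes. The same comparison with Dox gave medians of 0.10 and 1.00. edgeR called no gene there (0.0%), DESeq2 and limma voom called no member, and edgeR reached 0 of 91 nuclear members and 3 of 7 mitochondrial protein genes at an unadjusted p of 0.05, against 4.74% of all genes. Groups did not overlap for 7 of 91 nuclear members and for mt-Nd1 among the 7, against 4.31% of all genes. mt-Nd1 had a log2 difference of 1.05 (SE 0.34), mt-Co1 1.02 (SE 0.40), mt-Cytb 0.99 (SE 0.41), mt-Nd2 0.90 (SE 0.41) and mt-Rnr2 0.88 (SE 0.32), each with an adjusted p of 0.974. The lower members were Ndufa1 (-0.45), Ndufaf4 (-0.30), Atp5s (-0.60), Ndufs1 (-0.15) and Ndufb3 (-0.19), at adjusted p of 0.974.

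**Figure D3:**
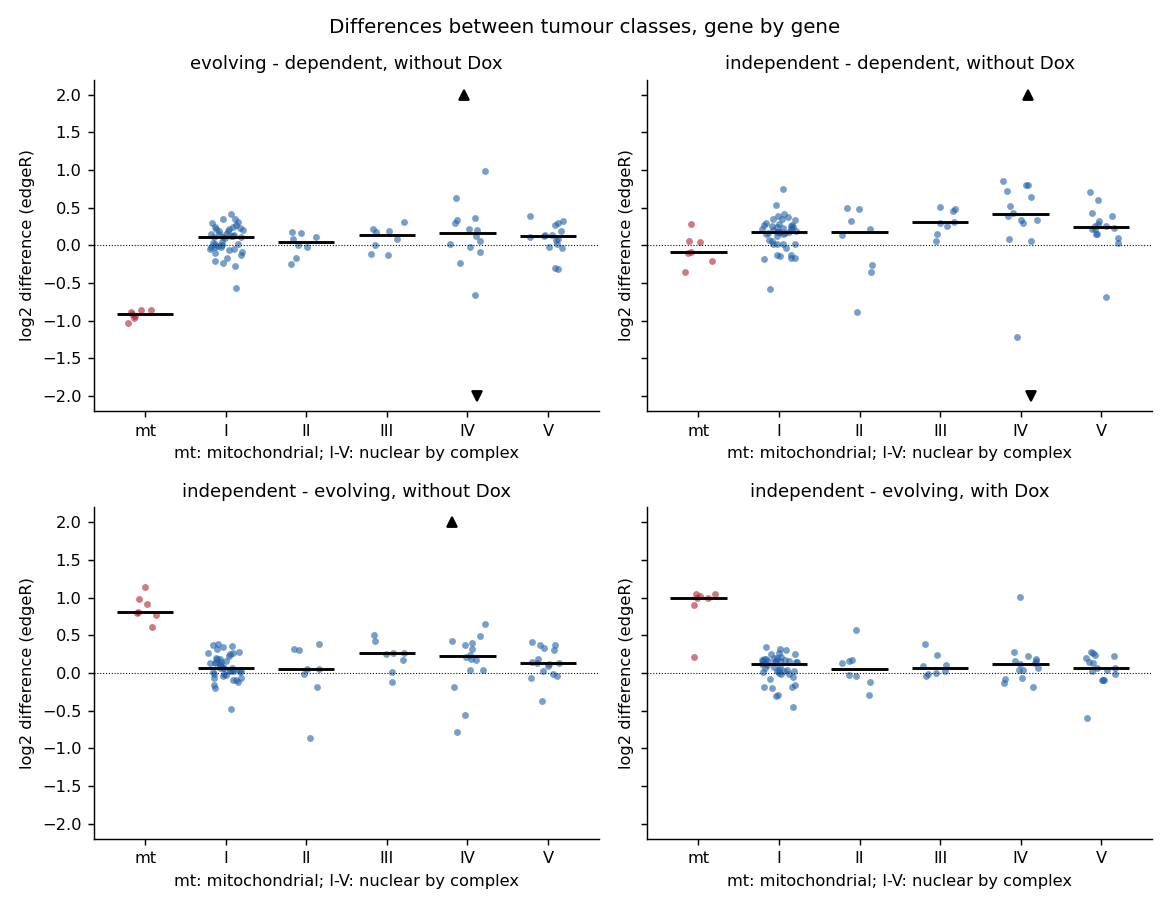
Log2 differences fitted by edgeR (y axis) for each gene in 4 class comparisons; mt marks the 7 mitochondrial protein genes and I to V the nuclear genes of each complex, bars are medians, and black triangles are values beyond the axis. The mitochondrial genes lie near -0.91 in evolving against dependent and near 0.81 in independent against evolving tumours, and complex IV has the highest nuclear median, 0.41, in independent against dependent tumours.

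Without Dox, 10 nuclear members lay higher in all 3 independent tumours than in every dependent and evolving tumour, or 10.9% of the 92 against 6.07% of all genes tested. They were Ndufb5 and Ndufs4 of complex I, Sdhc and Sdhd of complex II, Cox4i1, Cox6a1, Ndufa4 and Cox4i2 of complex IV, and Atp5g3 and Atp5a1 of complex V. With Dox, only Ndufb5 among them lay higher in all 3 independent tumours than in every evolving tumour. Cox6a1 (chromosome 5, 115345642 to 115348981) stood at 99.40 and 127.8 CPM in dependent, 165.1, 132.8 and 141.7 CPM in evolving and 169.7, 184.8 and 204.9 CPM in independent tumours. With Dox it stood at 184.2, 214.7 and 202.1 CPM in evolving and 153.5, 242.3 and 132.1 CPM in independent tumours, so the classes overlapped there. Its log2 difference from dependent tumours was 0.72 (SE 0.18), with an edgeR adjusted p of 0.175.

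Sdhd (chromosome 9, 50596357 to 50603812) stood at 104.6 and 102.5 CPM in dependent, 121.2, 110.4 and 111.3 CPM in evolving and 145.6, 132.2 and 160.7 CPM in independent tumours. Its differences were 0.50 (SE 0.13, adjusted p = 0.181) from dependent and 0.39 (SE 0.12, adjusted p = 0.179) from evolving tumours. Sdhc, the other membrane anchor of complex II, had 85.69 and 94.95 CPM in dependent, 106.3, 108.9 and 96.98 CPM in evolving and 130.4, 109.9 and 137.8 CPM in independent tumours, with VTL-25 just under VTL-44. Sdha, the flavoprotein that binds succinate, had 310.0 and 320.3, 342.4, 333.0 and 293.7, and 376.4, 324.2 and 477.8 CPM, so VTL-44 lay among the evolving tumours.

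Ndufa4 (chromosome 6, 11900292 to 11907497) stood at 85.32 and 104.0 CPM in dependent, 106.6, 99.88 and 79.40 CPM in evolving and 162.7, 126.1 and 151.9 CPM in independent tumours, 0.66 (SE 0.17) above evolving tumours with an adjusted p of 0.148. Atp5g3, a c-ring subunit of ATP synthase (chromosome 2, 73908447 to 73911326), stood at 230.9 and 285.5, 320.7, 282.2 and 302.4, and 402.9, 345.2 and 428.2 CPM in the same class order. It was 0.61 (SE 0.17) above dependent and 0.41 (SE 0.14) above evolving tumours, with adjusted p of 0.193 and 0.236. Ndufs4, an accessory subunit of complex I, spanned 63.11 to 69.08 CPM in the 5 other tumours and 76.97 to 86.07 CPM in the independent ones, a narrower step of 0.34 (SE 0.11) from evolving tumours (adjusted p = 0.191). Ndufb5, a further accessory subunit, had 0.42 from dependent and 0.37 from evolving tumours, and Sdhc 0.48 from dependent ones.

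Lower values in independent tumours were fewer. Sdhaf4, an assembly factor of complex II, had 11.95 and 12.36 CPM in dependent, 7.585, 14.43 and 15.04 CPM in evolving and 8.102, 5.182 and 6.449 CPM in independent tumours, so VTL-21 lay among the independent ones. Its differences were -0.88 (SE 0.36) from dependent and -0.86 (SE 0.33) from evolving tumours, at adjusted p of 0.363 and 0.256. Other lower members by the smallest p were Cox6a2 (-2.81), Sdhaf2 (-0.35) and Atp5s (-0.68) against dependent tumours, and Ndufaf3 (-0.47), Ndufa11 (-0.20), Atp5s (-0.38) and Sdhaf2 (-0.18) against evolving tumours, at adjusted p from 0.324 to 0.658.

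Promoter sequence was set beside these members because nuclear respiratory genes are known to share binding motifs for the factors NRF1, GABP, YY1 and the oestrogen-related receptors. RefSeq windows of build GRCm38.p6, from 250 bases before to 50 bases after the gene start, were found for 78 of the 92 nuclear members. Windows were searched on both strands for 4 core motifs. The NRF1 core GCGCATGCG was in 10 of 78 windows (12.8%) against 1.95% of 27025 genes, and the YY1 core AAGATGGCG in 8 (10.3%) against 1.64%. The GABP core CCGGAAGT was in 5 (6.41%) against 4.31%, and the oestrogen-related receptor core TCAAGGTCA in 2 (2.56%) against 0.466%. Any of the 4 was in 24 of 78 (30.8%) against 7.93%. The NRF1 core nearly reads the same on both strands, so 1 site can give a match on each, overlapping. YY1 matches lay 23 to 36 bases after the start in 7 of the 8 members, and after the start in 56.4% of all genes with a match.

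Of the 10 members higher in independent tumours than in both other classes without Dox, 6 had a window and 4 held a match. These 4 are printed because they are among the members that separate the classes without Dox and they carry 3 different motifs. With Dox, independent and evolving tumours overlapped for each of the 4. Capitals mark the matched bases, both receptor matches being on the other strand and the NRF1 match joining 2 overlapping hits, and all are 5′ to 3′ on the gene's strand, which is the minus strand in each case. Cox6a1 (chr5:115348959-115349208) and Atp5g3 (chr2:73911327-73911576) show the 250 bases before the start, and Ndufs4 (chr13:114388045-114388069) and Sdhd (chr9:50603800-50603823) a short stretch after it.
Cox6a1: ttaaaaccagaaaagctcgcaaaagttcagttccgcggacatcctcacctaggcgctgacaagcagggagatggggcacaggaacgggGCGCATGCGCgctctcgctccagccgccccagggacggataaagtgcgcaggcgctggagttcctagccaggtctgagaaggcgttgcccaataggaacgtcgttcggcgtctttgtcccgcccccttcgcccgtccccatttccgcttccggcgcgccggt
Atp5g3: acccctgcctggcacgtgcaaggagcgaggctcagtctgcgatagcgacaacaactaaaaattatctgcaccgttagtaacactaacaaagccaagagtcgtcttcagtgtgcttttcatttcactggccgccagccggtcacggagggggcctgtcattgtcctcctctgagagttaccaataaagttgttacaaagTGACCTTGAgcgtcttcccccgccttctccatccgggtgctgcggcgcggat
Ndufs4: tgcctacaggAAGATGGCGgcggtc
Sdhd: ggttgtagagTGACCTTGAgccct
The first matched base lies 162 bases before the start of Cox6a1, 52 before that of Atp5g3, 36 after that of Ndufs4 and 37 after that of Sdhd. A match describes letters only, and no binding was measured here.

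Restricted isoforms of complex IV were a small part of their pairs, yet they differed widely between libraries. Cox4i2, the isoform of subunit IV known from lung (chromosome 2, 152754173 to 152765037), was at 0.0533 and 0 CPM in dependent tumours. It was at 0.491, 0.457 and 0.312 CPM in evolving tumours without Dox and 2.11, 0.393 and 1.62 CPM with Dox. The independent tumours had 2.03, 2.32 and 4.31 CPM without Dox and 1.14, 3.10 and 4.06 CPM with Dox. The classes did not overlap without Dox, and with Dox VTL-21 and VTL-153 reached the independent range. Counts were 1 in dependent, 28 in evolving and 193 in independent tumours without Dox. The ratio of CPM of independent to dependent was 117 (95% exact interval 20.8 to 4660) and to evolving 6.82 (4.57 to 10.5), and both intervals cover counting error only. edgeR gave adjusted p of 0.078 and 0.137, and DESeq2 0.00103 and 0.00442. Per kilobase, Cox4i2 made up 0% to 2.01% of its pair with Cox4i1, the common isoform.

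Cox6a2, the isoform known from heart and skeletal muscle, was highest in VTL-24 at 19.0 CPM, where it made up 13.3% of its pair with Cox6a1 per kilobase. VTL-19 had 2.51 CPM, evolving tumours without Dox 0.803, 2.45 and 4.99 CPM and with Dox 2.46, 0 and 0.147 CPM, and independent tumours at most 3.83 CPM. Counts of dependent over independent tumours without Dox gave a ratio of 7.11 (95% exact interval 5.75 to 8.87) and of evolving without over with Dox 3.07 (2.24 to 4.28), and both intervals cover counting error only. Single tumours set these ratios: the first was 1.57 (1.09 to 2.23) without VTL-24, 11.9 without VTL-19 and 27.4 without VTL-81, and the other was 1.36 (0.941 to 1.99) without VTL-153 and 48.7 (16.3 to 239) without VTL-21, which left 3 counts with Dox. Cox6b2, the isoform known from testis, was highest in VTL-19 at 57.9 CPM, or 23.4% of its pair with Cox6b1, and ranged from 5.46 to 57.9 CPM. Evolving tumours had 30.5, 20.5 and 18.002 CPM of it without Dox and lower levels, 18.8, 18.2 and 8.54 CPM, when Dox was given. Cox7a1, known from muscle, stayed between 0.0463 CPM in VTL-24 and 2.16 CPM in VTL-25 without Dox.

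**Figure D4:**
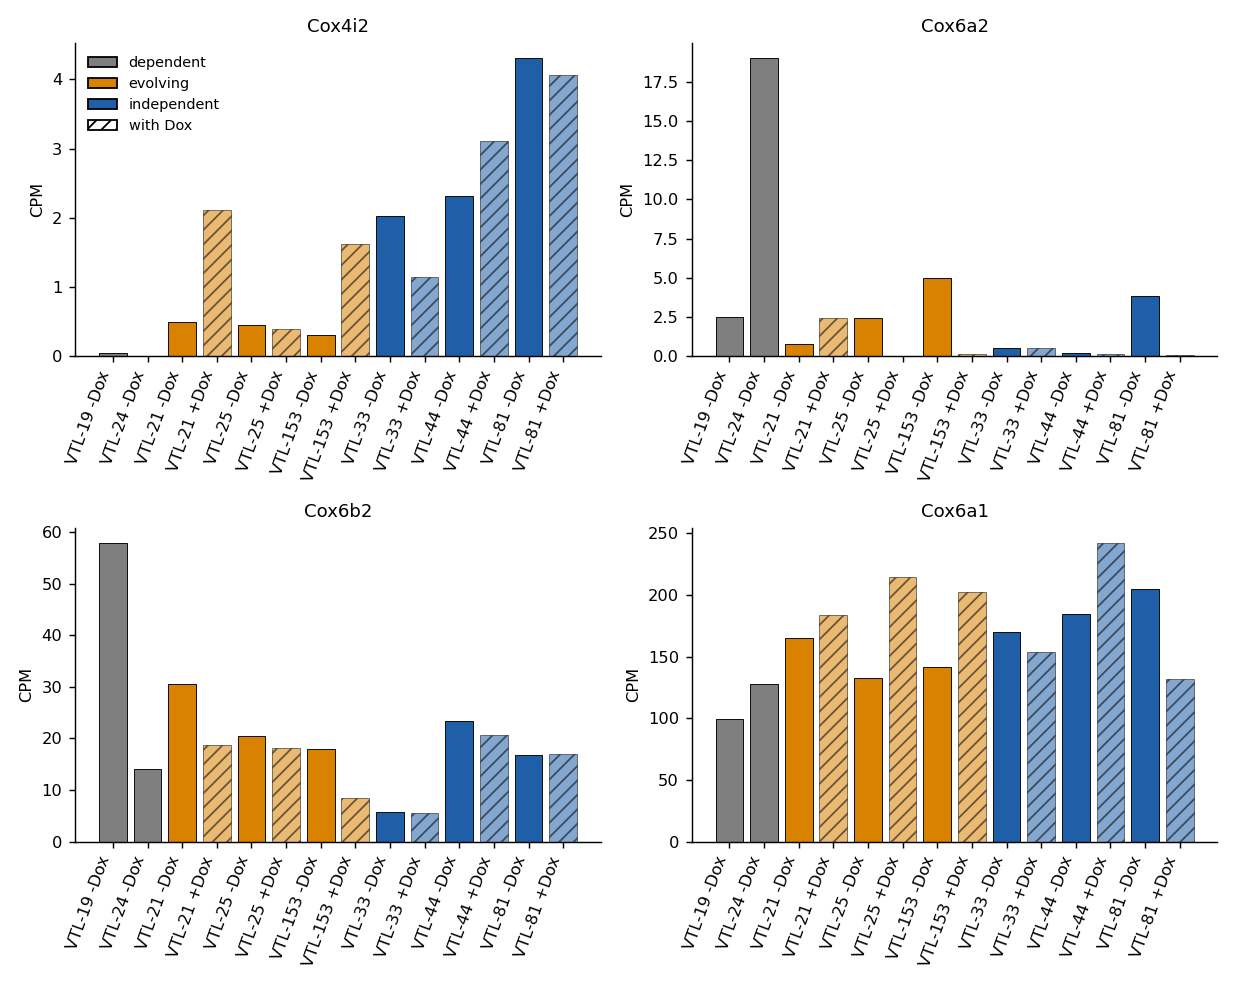
CPM (y axis) of 3 restricted complex IV isoforms and of Cox6a1, the common partner of Cox6a2, in the 14 libraries; bars are coloured by tumour class and hatched with Dox. Cox4i2 is near 0 in dependent tumours and reaches 4.31 CPM in VTL-81, while Cox6a2 peaks at 19.0 CPM in VTL-24 and Cox6b2 at 57.9 CPM in VTL-19.

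The chromosome on which a nuclear member lies went with its value for some members and libraries. For each library the median over the other genes of a chromosome was taken, after centring each gene on its mean. On chromosome 15, which carries Ndufb9, Cox6c, Ndufa6 and Atp5g2, that median was 0.30 in VTL-21, 0.27 in VTL-33 and 0.22 in VTL-44 without Dox, and -0.34 in VTL-19, -0.26 in VTL-24, -0.25 in VTL-25, -0.21 in VTL-153 and -0.22 in VTL-81. Cox6c was at 250.8, 288.4 and 279.1 CPM in the first 3 and between 137.1 and 186.2 CPM in the other 5. Ndufb9, an accessory subunit of complex I, was at 151.3, 145.2 and 143.5 CPM and between 78.70 and 111.4 CPM in the same libraries. Ndufa6, another accessory subunit of complex I, was closer, at 106.3, 92.45 and 80.39 CPM against 65.65 to 77.87 CPM. Atp5g2, a c-ring subunit of ATP synthase, did not separate them: it was at 33.87, 39.09 and 26.95 CPM against 17.76 to 32.34 CPM, with VTL-81 above VTL-44. In VTL-19 the other genes of chromosome 19 had a median of 0.46, and 5 nuclear members lie there. Of these, Sdhaf2 was 0.56, Ndufs8 0.375 and Ndufv1 0.30 above its own mean, while Ndufb8 at 0.056 and Cox8a at -0.04 lay near theirs.

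Within tumours this was clearest for VTL-25. With against without Dox, 10 chromosomes had medians above 0.1 and 8 below -0.1. Of 34 members on the former 31 were higher with Dox (median 0.40), and of 39 on the latter 32 were lower (median -0.17). Subtracting the chromosome medians took the SD of the members' changes from 0.35 to 0.24. VTL-153 had chromosome 15 at 0.44 and 7 chromosomes below -0.1, on which 26 of 32 members were lower, but all genes of that tumour had a median of -0.12, and subtraction took the SD only from 0.385 to 0.357. VTL-33 had 2 chromosomes below -0.1, on which 4 of 7 members were lower, and an SD of 0.125 before and 0.127 after. VTL-21, VTL-44 and VTL-81 had no chromosome beyond 0.1. The SD was 0.198 before and 0.195 after subtraction in VTL-21, 0.193 and 0.195 in VTL-44, and 0.219 and 0.218 in VTL-81. DNA copy number was not measured, and its part was not tested. In the class comparisons, the medians of the 85 members were 0.23 before and 0.25 after subtraction for independent against dependent, and 0.09 and 0.14 for independent against evolving tumours without Dox. For evolving against dependent tumours subtraction lowered the median, from 0.14 to 0.09.

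**Figure D5:**
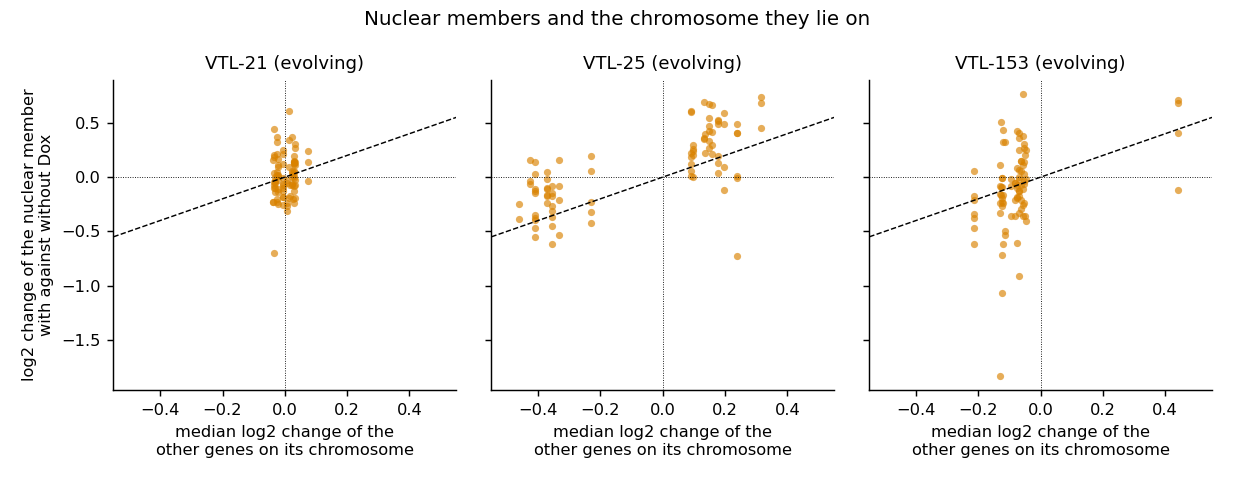
Log2 change with Dox of each nuclear gene above 10 CPM (y axis) against the median change of the other genes on its chromosome (x axis) in the 3 evolving tumours; each point is 1 gene and the dashed line marks equal values. In VTL-25 the points spread along the line between chromosome medians of -0.46 and 0.32, and in VTL-21 they stay within -0.04 and 0.07.

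Genes around the respiratory chain were read from further lists, which gave no call by edgeR except 1 in glycolysis. In independent against dependent tumours 14 of 15 electron carriers and exchange genes were positive (median 0.28), with Cyc1, the cytochrome c1 of complex III, at 0.72 (SE 0.24, adjusted p = 0.264) and the outer-membrane channel Vdac2 at 0.40 (adjusted p = 0.296). In the citrate cycle and pyruvate list 17 of 18 were positive (median 0.26), with Sucla2, a subunit of succinyl-CoA ligase, at 0.44. The mitochondrial ribosome had 57 of 76 positive (median 0.13), while 20 genes that express the mitochondrial genome had a median of 0.00, 9 regulators of mitochondrial biogenesis 0.01 and 30 assembly factors outside the symbol rule -0.02. Against evolving tumours without Dox, Slc25a4, an ADP/ATP exchanger, had 0.95 (SE 0.24, adjusted p = 0.132), and the cytosolic ribosome had 84 of 85 positive with a median of 0.54, larger than that of the nuclear respiratory genes. In evolving against dependent tumours the cytosolic ribosome had 80 of 85 negative, with a median of -0.34. The 1 call was Hk1, the hexokinase of most tissues, which fell by 1.21 (log2, SE 0.14) with Dox in evolving tumours at an adjusted p of 0.0149, and its Dox response in independent tumours differed from this by 1.24 with an adjusted p of 0.0877.

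Some members share sequence with other genes, which limits how far their counts are their own. Of all 50-base windows of mt-Nd4 62.2% also occur in another transcript of the GENCODE M21 annotation, and of mt-Co1 51.1%, through copies of mitochondrial DNA in the nuclear genome. The shares were 8.19% for mt-Nd2, 7.61% for mt-Nd5 and 0% for mt-Nd1, mt-Cytb and mt-Nd6. Among nuclear members Sdhaf1 shared 69.0%, Ndufaf2 64.1%, Atp5o 41.6%, Atp5g2 38.3% and Ndufb6 31.6%, so their counts are uncertain, while Sdhd, Atp5g3, Ndufa4, Ndufs4, Ndufaf4, Cox4i2 and Cox6b2 shared none, and Cox6a1 shared 9.16%. mt-Nd6 overlaps mt-Nd5 on the opposite strand, and whether strand was used in counting is not given in the sources used here.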

How the data were processed

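The deposited table holds raw read counts per gene for the 14 libraries, per the file headers. The submitters' processing notes name STAR 2.5.2b, featureCounts and build mm10, and the annotation, strand setting and treatment of reads with several matches are not given in the sources used here. Every gene in the table reached 1 CPM in at least 2 libraries. Normalized per-sample columns (42) and the authors' comparison columns were not used. Libraries held 18214415 to 24048281 counts, and precision is set by the number of tumours.

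Counts were scaled with TMM and tested with edgeR 4.0.16 (quasi-likelihood, robust) in R 4.3.3, after filterByExpr with a minimum count of 10, which left 12360, 12348 and 12093 genes. Dox was tested over the 12 libraries of 6 tumours with the tumour number as a block, classes over the 8 libraries without and the 6 with Dox. Adjusted p-values are Benjamini-Hochberg over all genes, at 0.05. The titles give the same tumour number to both Dox states, which is the source of the pairing. Correlations of the deviations from group means within a tumour were 0.151, 0.0166 and 0.188 for evolving and 0.716, 0.645 and 0.563 for independent tumours, in the order of the report. Levels are CPM of all counts, and changes within a tumour are differences of log2(CPM + 0.1). Lengths and positions come from GENCODE M21, which held all 105 members (104 under the same symbol), and promoters from RefSeq GRCm38.p6. DESeq2 1.42.0, limma 3.58.1 voom, RLE scaling, no filter, totals without mitochondrial counts, no block and each tumour left out were alternatives. Subtraction of chromosome medians was chosen after seeing the data. The tests were tried on simulated data.

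Named members are the mitochondrial protein genes, the most abundant member of each complex, restricted isoforms, any member past the threshold, and per comparison and direction the 5 with the smallest p at a mean log2 CPM of at least 2. From other lists up to 4 past the threshold, or else up to 2 with the smallest p, are eligible. The 10 members above both other classes, their promoters and the chromosome 15 genes were picked out after their values were seen. Members and lists were chosen with earlier results of these data known.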

Additional observations from a re-analysis of the deposited data

How the results depend on the processing

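No mitochondrial member passed the threshold under any alternative run, and nuclear members passed under DESeq2 alone, 5 in independent against dependent and 5 in independent against evolving tumours without Dox. The number of all genes called moved with the tool. DESeq2 called 1314 for Dox in evolving tumours (263 by edgeR), 549 for the difference of Dox responses (15), 791 for independent against dependent (12), 64 for evolving against dependent (0), 1068 for independent against evolving without Dox (32) and 94 with Dox (0). limma voom called 439, 67, 0, 7 and 1 for Dox in evolving tumours, the difference of responses, independent against dependent, and independent against evolving without and with Dox. Without the replicate block these counts were 73 for Dox in evolving tumours and 1 for the difference of responses, the nuclear median of Dox was 0.04 in evolving tumours, and the block changed no call of a member. Leaving out 1 tumour at a time gave 49 (without VTL-25) to 347 genes for Dox in evolving tumours, 0 to 58 (without VTL-21) for the difference of responses, 2 (without VTL-153) to 73 (without VTL-44) for independent against dependent, 0 to 1 (without VTL-33) for evolving against dependent, 3 (without VTL-25 or VTL-153) to 144 (without VTL-44) for independent against evolving without Dox and 0 to 4 (without VTL-21) with Dox. The cause was not tested.

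The nuclear median of evolving against dependent tumours ranged from 0.035 (without VTL-21) to 0.18 (without VTL-24). The mitochondrial median of independent against dependent ranged from -0.39 (without VTL-24) to 0.38 (without VTL-19), that of independent against evolving without Dox from 0.59 to 1.14 and with Dox from 0.69 to 1.37, and that of the difference of responses from -0.58 (without VTL-81) to 0.80 (without VTL-44). Signs turned without VTL-81 for the Dox values in independent tumours of mt-Rnr2 (-0.15, and 1.24 without VTL-44), mt-Nd2 (-0.14 and 1.18), mt-Nd1 (-0.14 and 1.01), Uqcrc2 (0.022 and -0.24) and Atp5b (0.094 and -0.31), and without VTL-25 for Ndufb3 in independent against evolving with Dox (0.064, and -0.30 without VTL-21).

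The number of tumours, 2 dependent and 3 in each other class, limits the precision of the class comparisons.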
